A study of Drosophila melanogaster with 37 samples.

Results

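The mRNA of the male head was compared with that of the testis of Drosophila melanogaster, gene by gene. The comparison rests on 4 of the 37 samples of the series, 2 PolyA libraries of male heads and 2 of testes, picked by their tissue, sex and RNA fraction labels. The head of an adult fly holds the brain, the compound eyes with their photoreceptors, and muscle, fat body, glia and cuticle. In the testis, germline stem cells give rise to spermatocytes, which transcribe most of the genes needed to build a sperm, and spermatids then elongate, repack their chromatin and grow a long tail. The glands and the duct attached to the testis secrete the proteins of the seminal fluid.

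The study compared circular and linear RNAs between tissues and sexes, and its PolyA libraries measured the linear mRNA. All 4 libraries came from adult males of an isogenic Canton-S strain, with no mutation or treatment, dissected 24 to 30 hours after eclosion. The libraries labelled testis held the whole inner reproductive system of the male, which adds the seminal vesicle, the accessory gland and the ejaculatory duct to the testis itself. The labels number the replicates 1 and 2 and do not say whether they were separate groups of flies. The p-values thus cover only the spread between libraries of a group, estimated over all 12 PolyA libraries of the series.

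Levels are in TPM, for which the authors divided the signal of each gene by its length and scaled each library to the same total, so that TPM is a share of the transcripts of a library. Differences are log2 fold changes of TPM + 1, male head over testis, with the standard error (SE) of the limma fit, and a gene is said to be higher in a tissue where its Benjamini-Hochberg adjusted p was under 0.05 over all genes tested. In bulk tissue, fewer cells of a type and less RNA per cell cannot be told apart.

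The libraries were alike within a tissue but not equal in composition. The rank correlation of TPM across genes was 0.970 between the 2 heads and 0.965 between the 2 testes. Genes at 1 TPM or more numbered 9574 and 9637 in the heads and 11057 and 11829 in the testes. Transcripts of the mitochondrial genome took 57.9 and 41.7% of all TPM in the heads and 16.6 and 1.06% in the testes. The gene mt:ATPase8 alone took 54.9, 39.2 and 15.7% in the first 3 of these and was listed at 0 in testis 2. Since TPM is a share, a large mitochondrial part lowers the nuclear genes of a library, and taking the mitochondrial genes out moved the median log2 fold change of all genes from -0.04 to 0.65. Libraries with the same number deviated together from their group means, so values are given in the order of the numbers. The RNAs roX1 and roX2, which coat the single X chromosome of males, were at 313 and 589 TPM and at 47.8 and 42.1 TPM in the male heads and at most at 2.75 TPM in the heads of females, as the sex labels have it.

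Most genes tested differed between the tissues. Of 12882 genes, 3177 were higher in the male head (24.7%) and 4148 were higher in the testis (32.2%), 56.9% in all. None of these 7325 genes overlapped between the tissues, which the test itself favours with 2 libraries per group. Genes without overlap differ in the same direction within both replicate numbers by definition, so neither is further evidence. Large differences were more frequent on the testis side, where 2157 genes were at least 16-fold higher, against 616 on the head side. Genes under 1 TPM in both heads and at 100 TPM or more in both testes numbered 608, and 47 showed the reverse. The split between the tissues depended on the scaling. Without the mitochondrial genes 5937 genes were higher in the head and 3937 in the testis, and after quantile normalization 5985 and 4044, so that the share of calls on the head side went from 43.4% to 60.1% and 59.7%. In none of the settings tried did a gene called here pass the test in the other direction. With the replicate number as a block, 4612 and 4997 genes were higher in the head and in the testis, including all of those above.

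**Figure D1:**
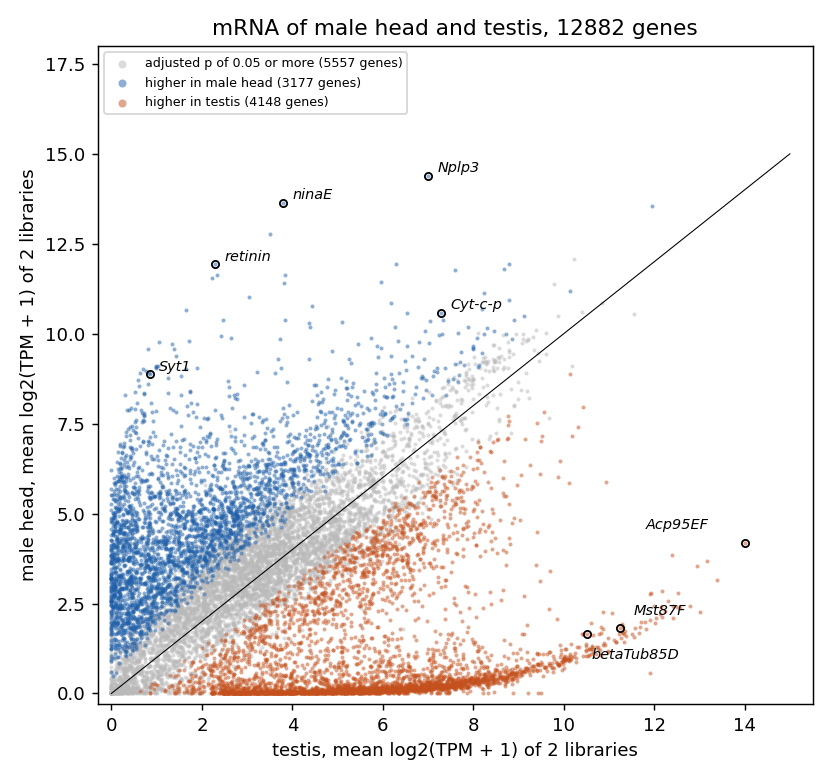
Mean log2(TPM + 1) of the 2 testis libraries (horizontal) and the 2 male head libraries (vertical) for 12882 genes, with 1 point per gene and the line of equal levels. The 3177 genes higher in the head (blue) form a cloud above the line, and many of the 4148 genes higher in the testis (orange) lie along the bottom, in a band that rises with the testis level through betaTub85D and Mst87F toward Acp95EF.

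The genes with the largest difference on the head side were mostly genes of the eye. The opsin ninaE (FBgn0002940; dm6 3R, 19886255 to 19888206, minus strand), the visual pigment of the outer photoreceptors, was at 12221 and 13327 TPM in the heads and at 15.4 and 10.8 TPM in the testes. Its log2 fold change was 9.85 (SE 0.44; adjusted p = 1.05e-07), the largest of all genes higher in the head. Arr2, an arrestin that quenches the activated pigment, was at 2962 and 3079 TPM against 4.46 and 3.03 TPM, a log2 fold change of 9.33 (SE 0.49; adjusted p = 1.21e-07). Head and testis libraries were far apart for both genes. The list of 40 phototransduction genes had 37 members higher in the head and none higher in the testis, with a median log2 fold change of 5.39, against -0.04 over all genes. Calx, rdgB and ninaD did not pass the test, with log2 fold changes of -0.06, 0.61 and 1.23. Without the mitochondrial genes, rdgB and ninaD were higher in the head (1.48 and 2.01) and the difference of Calx turned to 0.81 without passing. Summed over the list, the heads had 25766 and 28929 TPM and the testes 213 and 304 TPM.

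The other visual pigments differed in level between kinds of photoreceptor. Rh3 and Rh4, the ultraviolet opsins of the inner cell R7, were at 666 and 877 TPM and at 355 and 403 TPM. Rh5 and Rh6, the blue and green opsins of the inner cell R8, were at 112 and 129 TPM and at 156 and 150 TPM, and Rh2, the opsin of the ocelli, at 37.3 and 55.6 TPM. Each of these opsins was at most at 7.50 TPM in the testes and higher in the head, with log2 fold changes of 8.78, 5.63, 5.78, 6.75 and 5.18 for Rh3, Rh4, Rh5, Rh6 and Rh2.

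Downstream of the pigment, the eye's own G protein subunits had larger fold changes than the subunit that other tissues share. Ggamma30A and Gbeta76C, the gamma and beta subunits of the eye's G protein, had log2 fold changes of 9.30 and 8.19. Galphaq, the alpha subunit, was at 411 and 318 TPM in the heads and still at 37.2 and 33.4 TPM in the testes, a log2 fold change of 3.32 (SE 0.69; adjusted p = 0.00202). The phospholipase C norpA was at 234 and 309 TPM against 1.72 and 3.25 TPM. The channel trp, which opens at the end of the cascade, was at 484 and 590 TPM against 1.06 and 0.875 TPM, a log2 fold change of 8.09, and its partner trpl and the scaffold inaD were 8.07 and 8.31. The corneal protein gene retinin, at 2911 and 5225 TPM against 3.64 and 4.23 TPM, had a log2 fold change of 9.63.

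Some of the phototransduction genes share a short sequence just upstream of the gene, and the sequences are shown because the members were higher in the head together. The 100 bases before the 5′ end of each gene were read from the RefSeq copy of the Release 6 (dm6) genome, and the letters TAAT followed after any 3 bases by ATT were searched on both strands. They were found in 10 of 40 phototransduction windows (25%), in 530 of 12826 windows of the genes tested (4.13%), in 2.78% of those of genes higher in the head and in 5.69% of those of genes higher in the testis. The longer form that ends in ATTA, which reads alike on both strands and always contains the shorter one, was found in 6 of 40 (15%) and in 0.733% of the windows of genes tested. The motif was picked after the sequences had been looked at, and a match is a run of letters, not a bound site. TATAAA, the core of a TATA box, was in 8 of the 40 windows, against 17.3% of all tested. The windows below are on 3R at 19888207 to 19888306 (minus strand) for ninaE, 20082451 to 20082550 (minus) for Rh3, 15483058 to 15483157 (plus) for Rh6 and 29920290 to 29920389 (minus) for trp. For Arr1 the window is on 2L at 18078169 to 18078268 (plus), for ninaC on 2L at 7377602 to 7377701 (plus), and for Gbeta76C on 3L at 19687537 to 19687636 (plus). They are written 5′ to 3′ on the strand of the gene, ending at the base before the listed start, with both forms of the motif and TATAAA in capitals.
ninaE: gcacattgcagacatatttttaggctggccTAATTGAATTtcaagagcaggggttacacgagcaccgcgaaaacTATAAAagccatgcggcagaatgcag
Rh3: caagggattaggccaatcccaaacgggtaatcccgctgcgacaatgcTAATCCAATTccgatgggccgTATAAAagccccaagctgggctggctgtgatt
Rh6: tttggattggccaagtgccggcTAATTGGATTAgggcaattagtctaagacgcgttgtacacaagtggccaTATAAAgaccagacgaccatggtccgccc
trp: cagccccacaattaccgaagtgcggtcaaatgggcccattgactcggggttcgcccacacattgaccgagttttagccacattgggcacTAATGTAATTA
Arr1: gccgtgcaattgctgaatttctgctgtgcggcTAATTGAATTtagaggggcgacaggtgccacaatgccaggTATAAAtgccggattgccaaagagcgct
ninaC: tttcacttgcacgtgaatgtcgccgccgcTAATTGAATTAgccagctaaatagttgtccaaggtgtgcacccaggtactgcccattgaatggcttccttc
Gbeta76C: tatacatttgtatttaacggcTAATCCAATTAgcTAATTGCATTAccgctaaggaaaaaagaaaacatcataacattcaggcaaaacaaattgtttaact

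The windows printed above are not all of the 10 phototransduction windows that held the motif. The first base of the motif lay 53 to 79 bases before the start in ninaE, Rh3, Rh6, Arr1, ninaC and Gbeta76C, and 11 bases before it in trp. In ninaG and rtp, whose windows are not printed, it lay 44 and 62 bases before the start. The position in the last of the 10 is not given here. In ninaE, Rh3, Rh6 and Arr1 a TATAAA followed, 26 to 32 bases before the start. The windows of trp, ninaC, Gbeta76C, ninaG and rtp held no TATAAA. The motif is not particular to genes of the head. Of 34 windows of accessory gland genes, which are on the testis side, 5 held it (14.7%), 3 held the longer form (8.82%) and 12 held TATAAA (35.3%), and of 47 windows of sperm tail and spermatid genes 2 held the motif (4.26%). The windows of Mst87F, which is transcribed in the male germline (3R, 13828009 to 13828108, minus) and of Acp95EF of the accessory gland (3R, 24228875 to 24228974, plus) are shown as 2 that held none, picked by hand.
Mst87F: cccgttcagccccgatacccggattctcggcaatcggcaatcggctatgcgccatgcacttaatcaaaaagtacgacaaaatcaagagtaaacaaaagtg
Acp95EF: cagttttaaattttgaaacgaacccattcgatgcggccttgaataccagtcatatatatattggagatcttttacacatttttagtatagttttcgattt

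Genes of nerve cells were higher in the head without exception on the list. All 47 genes of synaptic transmission were higher in the head, with a median log2 fold change of 5.17 and a range from 2.09 to 8.01. Synaptotagmin (Syt1), the calcium sensor of vesicle release, was at 458 and 474 TPM in the heads and at 0.757 and 0.872 TPM in the testes, a log2 fold change of 8.01 (SE 0.35; adjusted p = 1.05e-07). The vesicle protein nSyb was at 796 and 1058 TPM against 9.0 and 16.5 TPM, and the active zone protein brp at 77.2 and 94.1 TPM against 1.95 and 3.48 TPM. The lowest head value was above the highest testis value for each of them. The sodium channel para, which carries the action potential, was at 55.3 and 77.5 TPM against 0.158 and 0.194 TPM, a log2 fold change of 5.82. Gad1, the enzyme that makes GABA, and cpx (complexin), the clamp of vesicle fusion, had log2 fold changes of 7.86 and 7.92. At the low end were the transporters of dopamine and serotonin, DAT and SerT, with 2.09 and 2.31.

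Of 32 neuropeptide genes, 30 were tested and 28 were higher in the head, with a median log2 fold change of 4.75. Nplp3, a peptide precursor, was the nuclear gene with the highest TPM in the heads, 18703 and 24640 against 117 and 138 TPM in the testes. Pdf, the peptide of the clock neurons, was at 46.5 and 61.1 TPM against 0.823 and 0.677 TPM. Corazonin (Crz) was at 31.6 and 37.2 TPM against 0.366 and 0.118 TPM, and sNPF, a peptide of feeding circuits, had a log2 fold change of 6.38. The exception was CCAP, the crustacean cardioactive peptide, at 1.27 and 2.14 TPM in the heads and 4.62 and 6.10 TPM in the testes, a log2 fold change of -1.24 (adjusted p = 0.00198). It no longer passed without the mitochondrial genes (-0.66; adjusted p = 0.101) or after quantile normalization (-0.60; adjusted p = 0.128).

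**Figure D2:**
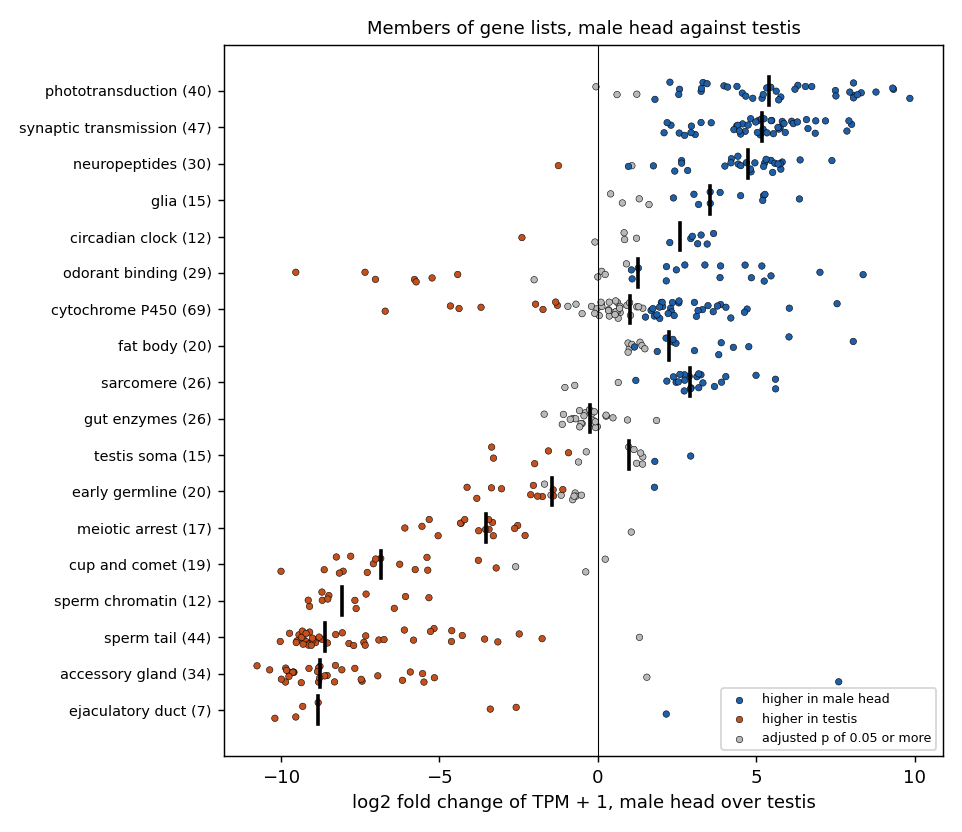
Log2 fold change of TPM + 1 between male head and testis for the tested members of 18 gene lists, with 1 point per gene, a black bar at the median of each list and the number of genes tested in brackets. Lists of eye, nerve, muscle and fat body genes lie to the right of 0, gut enzymes lie around 0, and lists of spermatocytes, spermatids and glands lie to the left, with medians down to -8.82 in the ejaculatory duct list.

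Glial genes were higher in the head in 11 of 15 cases and in none higher in the testis, with a median of 3.55. The glial transcription factor repo was at 12.6 and 21.0 TPM against 0.083 and 0.309 TPM, and the glutamate transporter Eaat1 at 126 and 188 TPM against 0.751 and 1.02 TPM. Glutamine synthetase Gs2, which turns glutamate into glutamine, was at 1005 and 1658 TPM against 21.4 and 52.1 TPM. The 4 members that did not pass were nrv2, loco, drpr and moody, from 0.41 to 1.62. The last 3 of these passed with the replicate block, and all 15 were higher in the head without the mitochondrial genes.

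The clock genes split. Of 12 genes, 7 were higher in the head, 1 was higher in the testis and 4 did not pass. The repressors per and tim had log2 fold changes of 3.26 and 3.15, with per at 18.8 and 24.0 TPM against 0.828 and 1.95 TPM. Clk, the activator of per and tim, went the other way, at 6.19 and 11.9 TPM in the heads and 34.6 and 70.5 TPM in the testes, a log2 fold change of -2.39 (SE 0.58; adjusted p = 0.0055). Both testis values of Clk were above both head values, but without testis 2 its call was lost (-1.89; adjusted p = 0.0507). Without the mitochondrial genes 11 of the 12 clock genes were higher in the head, Clk being the exception.

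Fat body, muscle and blood cell genes were also higher in the head. Of 20 fat body genes, 13 were higher in the head and 0 in the testis (median 2.26). The larval serum protein gene Lsp2 was at 403 and 740 TPM in the heads and at 3.20 TPM in testis 1, and was listed at 0 in testis 2. Rfabg, the precursor of the fly's main lipid carrier, was at 149 and 284 TPM against 6.47 and 6.75 TPM. The yolk proteins Yp1, Yp2 and Yp3 did not pass, with log2 fold changes from 1.33 to 1.49. Yp2 and Yp3 passed with the replicate block, and all 20 fat body genes were higher in the head without the mitochondrial genes. Yp1 was low in males, at 33.9 and 24.4 TPM in male heads against 3292 and 5425 TPM in female heads. What brings it into the male libraries was not tested. Of 26 sarcomere genes, 23 were higher in the head, and muscle myosin (Mhc) was at 430 and 437 TPM against 19.7 and 54.4 TPM, a log2 fold change of 3.68. Of 9 hemocyte genes tested, 6 were higher in the head, and 0 without head 2 or without testis 1. Summed over the list, the sarcomere genes reached 1281 and 2812 TPM in the testes, a level that the glial and fat body lists did not reach there (at most 394 and 360 TPM). Digestive enzymes, which mark gut left in a dissection, were low in all 4 libraries, at 87.7 and 142 TPM in sum in the heads and 172 and 107 TPM in the testes, and 0 of 26 passed the test (median -0.24, and 0.22 without the mitochondrial genes). With TPM rescaled by the median of ratios, 5 of them were higher in the testis.

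Genes of smell and detoxification went both ways. Of 52 genes of odorant binding proteins, which carry odours or other small molecules, 29 were tested, 17 were higher in the head and 7 in the testis. Obp19d had 761 and 917 TPM against 1.53 and 1.52 TPM, a log2 fold change of 8.37, and Obp28a had 10.6 and 20.9 TPM against 0.052 and 0.155 TPM. At the other end, Obp51a was at 2.57 and 0.559 TPM in the heads and at 1605 and 1882 TPM in the testes, a log2 fold change of -9.53. The odorant co-receptor Orco was low in the heads, at 0.983 and 1.11 TPM, as was the pheromone binding protein lush, at 1.35 and 1.72 TPM. Neither reached the mean level needed for a test. Most odorant receptors were low as well, with 50 of 61 under 1 TPM in all 4 libraries. At 1 TPM or more were 2 in both heads and 5 in both testes. Of the 3 tested, 0 were higher in the head and 2 in the testis. Of 85 cytochrome P450 genes, which oxidise hormones, fatty acids and toxins, 69 were tested, 31 were higher in the head and 8 in the testis, and 52 and 7 without the mitochondrial genes. Cyp313a1 was at 190 and 295 TPM against 0.276 and 0.260 TPM, and Cyp312a1 at 0.586 and 0.452 TPM against 124 and 199 TPM, with log2 fold changes of 7.55 and -6.70.

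On the testis side, the largest difference was that of CG11165, at 3130 and 4693 TPM in the testes, at 1.17 TPM in head 2 and listed at 0 in head 1. Of the 10 nuclear genes with the highest TPM in the testes, 4 were on the list of accessory gland proteins and 1 on that of the ejaculatory duct and bulb. Acp95EF of the gland reached 27238 and 10109 TPM in the testes and 42.5 and 6.43 TPM in the heads, a log2 fold change of -9.85 (SE 1.55; adjusted p = 0.000324). Dup99B, a peptide of the ejaculatory duct that acts on the mated female, reached 8560 and 4293 TPM against 11.8 and 1.11 TPM, a log2 fold change of -10.19 (SE 1.38; adjusted p = 0.000106). For both of these genes head 1 was above head 2 and testis 1 above testis 2.

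Of 34 genes listed as accessory gland proteins, 32 were higher in the testis, with a median log2 fold change of -8.77. The sex peptide gene SP, whose product changes egg laying and receptivity after mating, was at 1310 and 483 TPM against 2.13 and 0.474 TPM, a log2 fold change of -8.54 (adjusted p = 7.14e-05). Acp36DE, which is needed for sperm storage, was at 1259 and 5423 TPM against 2.49 and 2.22 TPM, and the order of the replicates was the reverse of that of Acp95EF and SP. Summed over the list, accessory gland genes held 88116 and 66913 TPM of the testes. The exceptions were Acp1, at 1857 and 3977 TPM in the heads against 7.92 and 21.0 TPM, and Acp65Aa, which did not pass with 1.55 (without the mitochondrial genes it passed, with 2.38). Both are adult cuticle protein genes whose symbols share the letters of the gland genes. Of 7 genes of the ejaculatory duct and bulb, 6 were higher in the testis. PebIII went the other way, at 1617 and 2393 TPM against 429 and 449 TPM, a log2 fold change of 2.16.

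The genes that build sperm were low in the heads. Of 44 tested genes of the sperm tail and spermatid, 43 were higher in the testis, with a median log2 fold change of -8.61. Mst87F, a protein of the outer sperm tail, was at 5.73 and 0.848 TPM in the heads and 2700 and 2174 TPM in the testes, a log2 fold change of -9.42 (SE 1.04; adjusted p = 2.2e-05). The tubulin betaTub85D, which forms the microtubules of the sperm tail and the meiotic spindle, was at 2.80 and 1.58 TPM against 1169 and 1851 TPM, and dj (don juan) of the sperm tail at 1.88 and 0.364 TPM against 1275 and 1190 TPM. For Mst87F the lower testis value was 379-fold above the higher head value, and the tissues were as far apart for the other genes. The only member that did not pass was Mst85C, with a log2 fold change of 1.31, and with the replicate block it was higher in the head (adjusted p = 0.00413).

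All 12 genes of sperm chromatin were higher in the testis, from -5.33 to -9.13. Mst77F, a histone-like protein of the sperm nucleus, was at 3.73 and 1.49 TPM against 1725 and 2027 TPM, and the protamine gene Mst35Bb had -9.13. Of 19 cup and comet genes, which are transcribed late, in elongating spermatids, 16 were higher in the testis (median -6.85), with w-cup at -9.99, soti at -8.63 and schuy at -8.25. The genes s-cup, swif and hubl did not pass.

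The lists of germline regulators had smaller median differences than the sperm tail list and lower summed levels in the testes. Of 17 tested meiotic arrest genes, which switch on transcription in spermatocytes, 16 were higher in the testis, with a median log2 fold change of -3.54. The transcription regulator aly was at 8.93 and 18 TPM in the testes, at 0.034 TPM in head 1 and listed at 0 in head 2. Summed over the list, the arrest genes had 370 and 540 TPM in the testes, against 36223 and 36644 TPM of the sperm tail genes. The exception was Nxt1, an mRNA export factor used in many cells, with 1.06, which was higher in the head with the replicate block (adjusted p = 0.00175). Of 15 genes of meiotic entry and division, 14 were higher in the testis. Their median log2 fold change was -3.70, with a range from -0.16 to -9.51, and the highest member reached 1723 and 2035 TPM in the testes. This list shares loopin-1 with the sperm tail list, and bam, bgcn and tut with the early germline list, so the counts of these lists overlap. The meiotic Cdc25 phosphatase twe was at 50.6 and 77.6 TPM against 0.994 and 1.12 TPM. The translational regulator bol was at 454 and 819 TPM against 61.5 and 107 TPM, so that a level above 60 TPM remained in the heads, and its log2 fold change was -2.90. The mitochondrial fusion gene fzo had -5.96.

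Genes of the early germline differed by less. Of 20 genes, 11 were higher in the testis, 1 in the head and 8 did not pass (median -1.44), and with TPM rescaled by the median of ratios 19 were higher in the testis. The germline helicase vas was at 5.06 and 7.04 TPM against 0.707 and 0.710 TPM, a log2 fold change of -2.03. The differentiation factor bam, which acts in a short stage, had -1.40 (adjusted p = 0.0353), and its call was lost whichever library was left out (adjusted p from 0.0655 to 0.141). The gene higher in the head was ovo, a transcription factor of germline and epidermis, whose call was likewise lost without any 1 of the 4 libraries. Of 15 genes of the somatic cells of the testis, 5 were higher in the testis, a share close to the 32.2% of all genes, led by the Hox gene Abd-B with -3.35, and 2 were higher in the head (1 without head 2 or testis 1, 4 without testis 2, 8 with the replicate block). The list also holds genes that the nervous system and the eye use.

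The testis was also described through 30 pairs of genes in which a testis copy and another copy encode the same kind of protein. The pairs were chosen with earlier results of these data known. Some testis copies, such as can, sa, fzo and Cyt-c-d, are also on the lists above, so the pairs are not separate evidence. The testis copy was higher in the testis in 29 of 30 pairs, where 32.2% of all genes tested were. Of the 29 different other copies, 4 were higher in the testis, 6 were higher in the head and 19 did not pass. With the replicate block, 8 of the 19 passed, betaTub56D, Taf5, Marf, Rpt3, eIF4G, Vha68-2 and RpS5a on the head side and Prosalpha6 on the testis side, which made 13 higher in the head and 5 in the testis. In 22 pairs, the testis copy made up more than 50% of the TPM of the pair in both testes. Cyt-c-d, the cytochrome c of sperm, was at 862 and 765 TPM in the testes and at 1.66 and 0.824 TPM in the heads. Cyt-c-p, the general cytochrome c, was at 118 and 202 TPM in the testes and at 1290 and 1809 TPM in the heads. The pair thus changed places, with log2 fold changes of -8.53 (SE 0.66) and 3.29 (SE 0.69). The same opposite signs, each past the test, held for RpL22-like (-6.56) and RpL22 (1.96) of the ribosome, Pglym87 (-7.89) and Pglym78 (3.28) of glycolysis, and ms(3)72Dt (-4.93) and ATPsyn-beta (3.45) of the ATP synthase. It also held for Taf12L (-6.09) and Taf12 (1.86) of the transcription factor TFIID. RpL22 and Taf12 did not pass without head 2 (adjusted p of 0.0809 and 0.0871) or without testis 1 (0.107 and 0.0867).

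In other pairs the other copy was read in both tissues at levels nearer to each other. The proteasome subunit Prosalpha6T was at 180 and 218 TPM in the testes and at 0.334 and 0.0772 TPM in the heads. Its counterpart Prosalpha6 was at 24.2 and 39.5 TPM in the heads and 37.3 and 63.5 TPM in the testes. The groups overlapped, but the testis was higher within both numbers and Prosalpha6 passed with the replicate block (adjusted p = 0.0326), while without the mitochondrial genes its log2 fold change went from -0.64 to 0.21. In tomboy20 and Tom20 of mitochondrial import, in Ran-like and Ran, in sa and Taf8 and in Prosalpha3T and Prosalpha3, both copies were higher in the testis, the testis copy by more. The exception among the testis copies was Vha36-3 of the vacuolar ATPase, at 14.3 and 19.7 TPM in the heads and 10.04 and 16.9 TPM in the testes, which overlapped. Near-identical copies can share reads, and how the authors' counting divided such reads is not given in the sources used here.

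**Figure D3:**
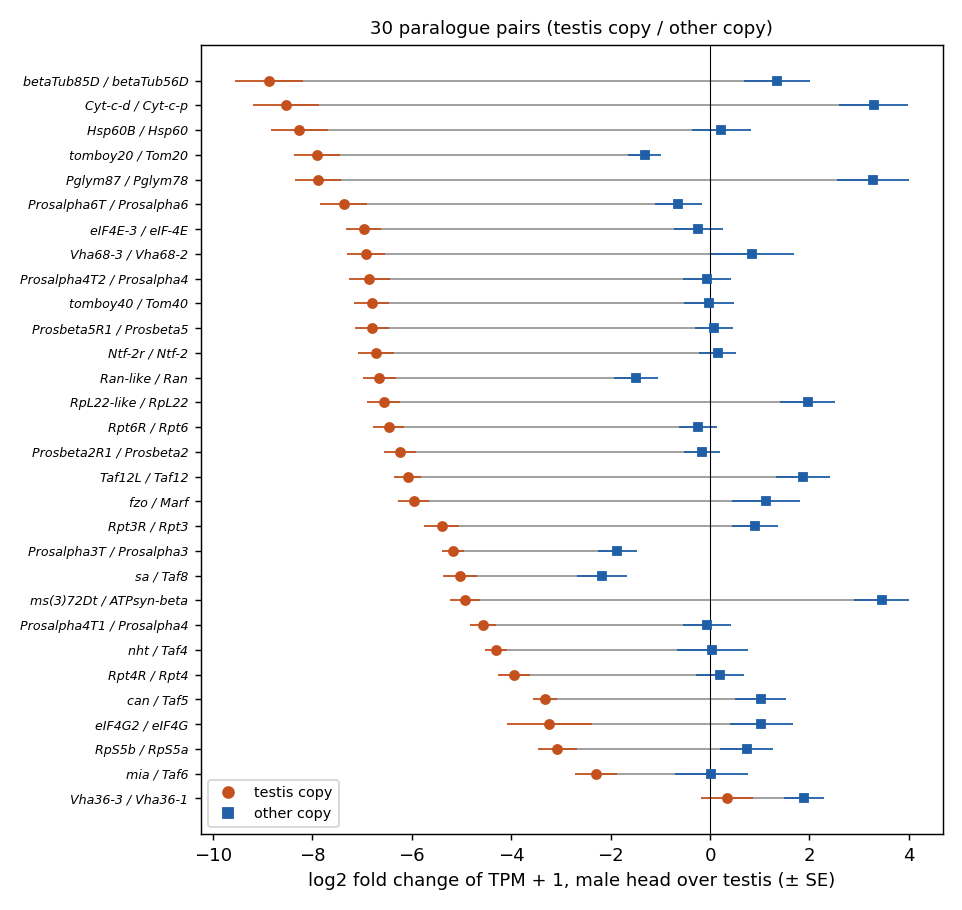
Log2 fold change of TPM + 1, male head over testis, with its SE, for the testis copy (orange circles) and the other copy (blue squares) of 30 paralogue pairs. The testis copies lie left of 0 except Vha36-3, while the other copies spread on both sides of 0, and Cyt-c-d and Cyt-c-p lie at -8.53 and 3.29.

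Differences were uneven along the chromosomes. On the X, 28.3% of 2059 genes were higher in the head and 24.8% in the testis, and on 2L 22.1% of 2476 and 38.3%. The other large arms lay between these on the testis side, from 31.3 to 34.3%. The X held the fewest genes at least 16-fold higher in the testis among the large arms, 284 (13.8%), against 531 (21.4%) on 2L. The number of X-linked genes higher in the head, 582, was 377 without head 2, 375 without testis 1, 897 with the replicate block and 1119 without the mitochondrial genes. On 2R the number was 623 and fell to 413 without testis 1. The rise without the mitochondrial genes was seen on every large arm, from 548 to 1024 on 2L, 623 to 1204 on 2R, 570 to 1104 on 3L and 780 to 1403 on 3R. The median log2 fold change of X-linked genes was 0.43, against -0.04 over all genes, and without the mitochondrial genes it was 1.17 against 0.65. On chromosome 4, the small dot chromosome, 65 of 95 genes were higher in the head (68.4%) and 8 in the testis. Of 71 genes listed on the Y chromosome, 24 reached the mean TPM needed for a test, and all 24 were higher in the testis. Genes low in the heads pass that filter only through libraries where they are high, so the filter favours this direction. The male fertility factor kl-5, a dynein heavy chain of the sperm tail, was at 2.93 and 6.95 TPM in the testes. It was at 0.008 TPM in head 1 and listed at 0 in head 2.

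**Figure D4:**
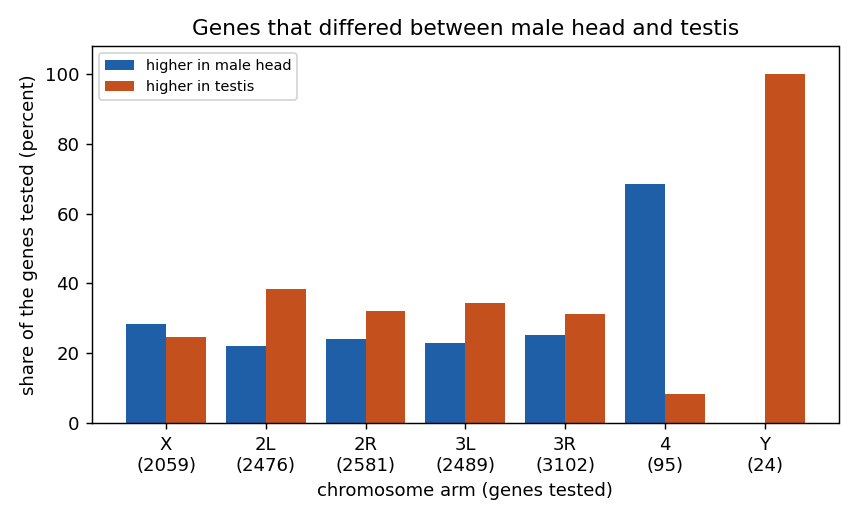
Share of the genes tested on each chromosome arm that were higher in the male head (blue) or higher in the testis (orange), with the number of genes tested in brackets. The bars cross over between 2L, with 38.3% higher in the testis, and chromosome 4, with 68.4% higher in the head. The Y chromosome has genes of the testis side alone, among the 24 of 71 listed genes that passed the filter.

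A list of 9 genes picked from those with circular RNAs in the study was mostly higher in the head as linear mRNA. The list leaves out CG12047 and CG40178, whose circular RNAs the study describes as back-spliced in ovary and in testis. The study took some of these 9 genes from earlier work and others from RNA of the same tissues, so the list is not independent evidence of a direction. Of the 9, 7 were higher in the head and 0 in the testis, with a median log2 fold change of 2.74. The guanine exchange factor sif was at 175 and 206 TPM against 0.601 and 0.670 TPM, and mbl (muscleblind), a splicing regulator, had 2.71. The genes heph and crc did not pass.

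The female head and ovary libraries, which share no library with the 4 above, show where the male difference is that of head against gonad in either sex. Both comparisons take the spread of a gene from the same fit of 12 libraries. Male and female heads of a number also deviated together (r = 0.70), so the calls in males and females are not independent. In females, 2463 genes were higher in the head and 3667 in the ovary. The 1906 genes higher in the head in both sexes were 60.0% of the male and 77.4% of the female head calls, where 19.1% of all genes tested were higher in the female head and 24.7% in the male head. The 1061 genes higher in both gonads were 25.6% of the testis and 28.9% of the ovary calls, where 28.5% of all genes tested were higher in the ovary and 32.2% in the testis. The difference between head and gonad itself differed between males and females in 6248 of 12882 genes (48.5%), in a test of the interaction. Of the 4148 genes higher in the testis, 3081 were among these with the difference toward the testis side in males. Genes of the testis side whose interaction went the other way are not in that count. The opposite direction in females held for 149 genes higher in the testis and in the female head, and for 252 genes higher in the male head and in the ovary.

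The low TPM of testis genes in the heads had close counterparts in females. Over 28 accessory gland genes with at least 100 TPM in both testes, the level in the male head was a median of 0.180% of that in the testis in number 1 and 0.0413% in number 2. In the female heads it was 0.194% and 0.0392% of the testis, and in the ovaries 1.06% and 0.240%. Acp95EF was at 42.5 and 6.43 TPM in the heads of males and at 43.9 and 6.66 TPM in the heads of females. Over 35 genes of sperm tail and spermatid, the medians were 0.178% and 0.0416% in the male and 0.187% and 0.0426% in the female heads. In the other direction, 21 phototransduction genes were at a median of 0.220% and 0.171% of the male head level in the testes, and 0.213% and 0.108% in the ovaries. Over 13 eggshell genes, the medians were 0.523% and 0.296% of the ovary level in male heads and 0.183% and 0.0611% in testes. At such levels Vm26Aa, Vm34Ca, Cp38 and Cp36 passed as higher in the male head than in the testis. They are among the genes higher in the male head and in the ovary. What brings these transcripts into libraries of both sexes was not tested. A fold change of a gene whose level in the low tissue is of this size is limited by it, and a call can rest on such levels alone.

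**Figure D5:**
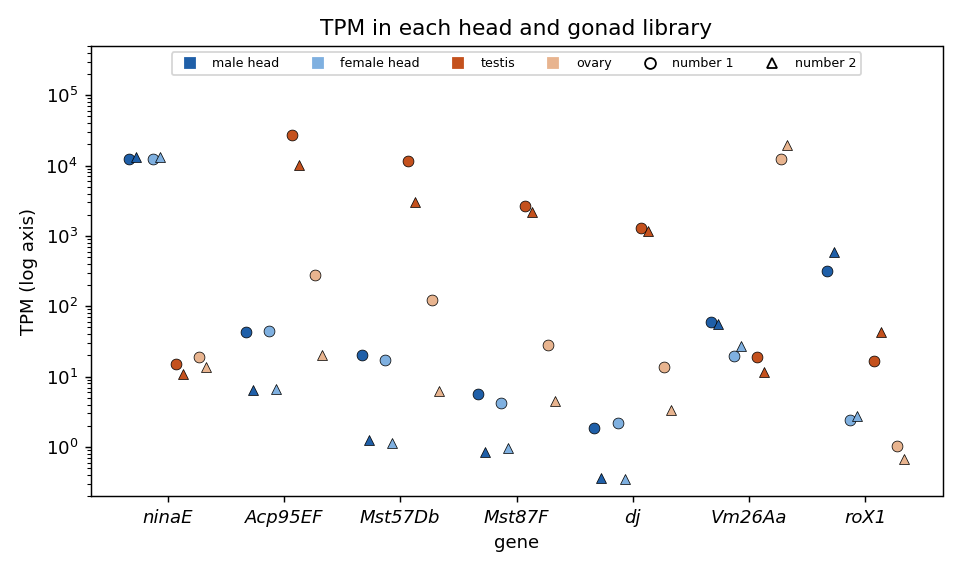
TPM on a log axis of 7 genes in each male head, female head, testis and ovary library, with circles for number 1 and triangles for number 2. The accessory gland genes Acp95EF and Mst57Db and the spermatid genes Mst87F and dj lie at the same low level in male and female heads, higher in number 1 than in number 2. The level of roX1 is highest in the male heads, lower in the testes (16.6 and 43.0 TPM) and at most 2.75 TPM in female heads and ovaries.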

How the data were processed

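PolyA RNA of male heads and testes was analysed in 2 libraries each, within the 12 PolyA libraries of the series, and the other 25 samples were not analysed here. The authors trimmed the reads with cutadapt and mapped them to dm6 with STAR version 2.6.1a and an Ensembl annotation. The labels also name Cufflinks and StringTie version 2.0, but which of these made the gene tables is not given in the sources used here. The deposited tables, 1 per library, list what the authors computed for 17559 genes as TPM, FPKM and coverage. The deposited TPM and FPKM values are normalised for gene length and library total and keep no read counts, so depth is seen only as coverage per TPM, 7.41 and 6.28 in the heads and 8.90 and 5.01 in the testes, and the precision of a gene was judged from the replicates.

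Log2(TPM + 1) of the 12882 genes with a mean of at least 1 TPM over the 12 libraries was fitted with lmFit and eBayes (with a trend) of limma 3.58.1, run in R 4.3.3, with 1 mean per group. The fit of all 12 libraries takes its spread from 6 groups of 2. Tests were two-sided, p-values were Benjamini-Hochberg adjusted over all genes, and the threshold was 0.05. Fold changes on this scale understate the change of low genes. A value of 0 may be a failed estimate, so no fold of a single gene is given against a group listed at 0. The counts of genes at least 16-fold higher and the list medians do include such genes. Other steps used pandas 2.3.3, numpy 2.4.6 and matplotlib 3.10.9 in Python 3.11.15.

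The gene lists, pairs and rules were chosen with earlier results of these data known. Genes were named by rule as the 10 with the largest differences and the 10 with the highest TPM in each tissue, list examples, all paralogue pairs and the 5 largest interactions in each direction, and genes named beyond the rule were chosen after their values were seen. Of 781 list entries, 11 were not matched to a gene. To check whether replicate numbers pair the libraries, deviations from the group means were correlated across genes between libraries of a number; r lay between 0.345 and 0.769 in all 15 pairs of groups, so the numbers pair the libraries. What libraries of a number share is not given in the sources used here. Alternatives were a pseudocount of 0.1, all genes above 0, a mean of at least 5 TPM, FPKM, median of ratios, quantile normalization, TPM without the mitochondrial genes, the replicate block, a fit of the 4 libraries alone (8 for the interaction), no trend and leaving out each library. The fit without the mitochondrial genes and with the block was chosen after seeing the data.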

Additional observations from a re-analysis of the deposited data

Results flagged for a closer look

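The difference between head and gonad was not the same in males and females for 6248 of 12882 genes (limma interaction, adjusted p under 0.05), 2792 toward the head side in males and 3456 toward the testis side. The genes with the largest such differences toward the male head were eggshell genes of the ovary. The vitelline membrane gene Vm26Aa was at 59.5 and 56.4 TPM in male heads and 19 and 11.5 TPM in testes, and at 19.5 and 27.0 TPM in female heads and 12265 and 19530 TPM in ovaries. The male minus female difference on the log2 scale was 11.24 for Vm26Aa, 11.19 for Vm34Ca, 10.51 for Cp38, 10.48 for Cp15 and 10.13 for Cp36, the last 3 being chorion genes. The highest value of Vm26Aa and Vm34Ca in the 4 male libraries was 76.1 TPM. Toward the testis, CG11165 differed by -8.70 between the sexes, with 42.0 and 13.2 TPM in ovaries and 5.10 and 1.57 TPM in female heads. CG17770 (1004 and 522 TPM in the testes) and CG43397 (613 and 770 TPM) were listed at 0 in both heads of both sexes and in both ovaries, and CG43885 (579 and 596 TPM) and CG31806 (327 and 213 TPM) at 0 in both ovaries. No explanation of these differences was tested.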

How the results depend on the processing

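The 3177 genes higher in the head became 5985 after quantile normalization, 5937 without the mitochondrial genes and 6386 without them and with the replicate block. The other alternatives kept this count, and all of them kept the 4148 genes of the testis side and the 6248 genes of the interaction, within 1.5 times. Scaling moved the median log2 fold change of all genes by 0.69 without the mitochondrial genes, by 0.59 after quantile normalization and by -0.25 with the median of ratios. Leaving out each library gave 2182 to 3084 genes higher in the head, 3624 to 4043 higher in the testis, 5023 to 6040 with an interaction and 28 to 29 testis copies higher in the testis. With the replicate block and with FPKM, 9021 and 8340 genes had an interaction. Of the 173 genes named by rule, 22 changed sign in at least 1 setting, none of them called, among them Cyp4g1, alphaTry and other copies of the paralogue pairs. Of the 88 genes followed because the text describes their difference, 2 changed sign. Prosalpha6 went to 0.21 after quantile normalization and without the mitochondrial genes, with or without the block. Calx, which passed the test only after quantile normalization, went to 0.021 with FPKM, 0.81 after quantile normalization, 0.81 without the mitochondrial genes with or without the block, and to values from -0.61 to 0.50 with a testis library left out. The replicate block lost no call of the 173 genes and added 11. Depth in reads is unknown, and with 2 libraries per group a p over the threshold does not show that levels were alike. The testis libraries hold glands and duct, so a gene higher in the testis need not be one of the germline.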
